A study of Xenopus tropicalis with 11 samples.

Results

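Foxh1 binding in the early gastrula was compared with Foxh1 binding at stage 9, a late blastula stage, in Xenopus tropicalis embryos mapped by chromatin immunoprecipitation and sequencing (ChIP-seq). The members are the 1290 peaks of the early gastrula list and the 29935 peaks of the stage 9 list, together 31225 of the 139160 peaks in the 6 deposited lists of the series. A gastrula peak and a stage 9 peak were paired when they overlapped by 1 base or more. The series takes up 5 samples of an earlier series in reanalysed form, and the gastrula Foxh1 and Smad2/3 lists, which have no labelled sample of their own here, are counted among these. Both were deposited under a stage later than the stage 10.25 of the Foxa list. The stage 9 list stands for 2 pooled replicates of whole embryos of the Nigerian strain, grown at 25 °C, fixed in 1% formaldehyde for 45 min, sonicated to fragments of 200 to 500 bp and precipitated with a custom antibody against Xenopus tropicalis Foxh1. For the gastrula embryos the sources used here give neither strain, antibody nor culture. The labels name no treatment and no allele. Stage and series cannot be told apart. With 1 list per stage there is no spread between replicates and no test, and the intervals of shares are Wilson 95% intervals that cover the counting error of peaks only.

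Foxh1 is a forkhead transcription factor that the egg supplies and that recruits Smad2/3 when Nodal ligands signal. Nodal signalling through Foxh1 and Smad2/3 sets up mesoderm and endoderm in the frog embryo. At stage 9 zygotic transcription has begun, and by the early gastrula the organizer and the mesendoderm are expressing their first regulatory genes. Whole embryos hold all germ layers, so fewer cells with binding and weaker binding per cell cannot be told apart.

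The value used for ranking was the authors' fold enrichment, the signal of a peak over its local background. In the gastrula list it ran from 7.70 to 47.0 with a median of 10.6, and in the stage 9 list from 4.79 to 51.0 with a median of 15.7. Only 189 stage 9 peaks lay below the lowest gastrula fold. Gastrula peaks had a median width of 253 bases, against 292 bases at stage 9. The distance to the next summit was taken to the nearest other summit of the same list, on either side. It had a median of 171724 bases in the gastrula and 7067 bases at stage 9, in lists that differ in their number of peaks. The depth of the libraries is unknown, and absence from the shorter list is not absence of binding.

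Nearly all gastrula Foxh1 peaks overlapped a stage 9 peak, and few stage 9 peaks had a gastrula peak. Of the 1290 gastrula peaks, 1213 had a stage 9 peak (94.0%, interval 92.6 to 95.2%), and 1203 of the 29935 stage 9 peaks had a gastrula peak (4.02%, 3.802 to 4.25%). Each paired gastrula peak met exactly 1 stage 9 peak. In 1118 of the 1213 pairs (92.2%) the gastrula peak lay wholly inside the stage 9 peak. With a required overlap of 50% of both peaks, the gastrula share was 51.0% and the stage 9 share 2.20%. The gastrula peak was the narrower one in 1180 pairs (97.3%). In the pairs the median width was 256 bases in the gastrula and 520 bases at stage 9, with a median ratio of 0.528.

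No pair lay near the required overlap of 1 base. Positions are given on scaffolds of a genome build that the sources used here do not name. The pairs of least overlap shared 93, 97 and 97 bases, and they lay at scaffold 1:91917491-91917583, at scaffold 4:52866624-52866720 and at scaffold 66:409895-409991. The nearest gastrula peaks with no overlap were 523, 675 and 774 bases away from the closest stage 9 peak, at scaffold 5102:4266-4445, at scaffold 9:3304418-3304759 and at scaffold 10:28128078-28128218.

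A stage 9 peak held 2 gastrula peaks in 10 cases. These stage 9 peaks were 849 to 1521 bases wide, with a median of 1181.5 bases. Their gastrula summits were 187 to 963 bases apart. The gastrula summit nearer to the stage 9 summit was the higher one by fold in 6 of the 10. The stage 9 peak at scaffold 53:75508-76584, chosen after its values were seen, held gastrula peaks with folds of 34.5 and 9.38 whose summits were 740 bases apart.

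The 77 gastrula peaks without a stage 9 peak were weak and narrow for their list. Their median fold was 8.51 and their median width 187 bases, against 10.7 and 256 bases for the gastrula peaks with stage 9 Foxh1. Foxa, a forkhead factor of endoderm and organizer mapped at stage 10.25, had a peak at 41 of them (53.2%), against 1106 (91.2%) of the gastrula peaks with stage 9 Foxh1. Stage 8 Foxh1 was present at 3 of the 77 (3.90%), against 953 (78.6%) of the paired ones. Tle, a Groucho-type co-repressor mapped at stage 8, was present at 4 (5.19%), against 723 (59.6%). Smad2/3 of the early gastrula was present at 14 (18.2%), against 246 (20.3%). Over the whole gastrula list the shares were 88.9% for Foxa, 74.1% for stage 8 Foxh1, 56.4% for Tle and 20.2% for Smad2/3. Gastrula peaks missing at stage 9 were thus rarely in either stage 8 list.

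Of these 77 peaks, 20 lay on 9 scaffolds that had no stage 9 peak anywhere. The other 57 were 523 to 994350 bases from the nearest stage 9 peak, with a median of 16036 bases, and only 4 were within 1 kb. Scaffold 480 stood apart, with 11 gastrula Foxh1 peaks between positions 8717 and 41663 and 3 Smad2/3 peaks but none of the stage 8, stage 9, Tle or Foxa lists. The 11 Foxh1 peaks had a median width of 147 bases. Without this scaffold the share of gastrula peaks with stage 9 Foxh1 was 94.8%.

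The 5 highest gastrula peaks without a stage 9 peak had folds of 21.9, 21.3, 20.9, 19.8 and 18.7. The first and the third of them lay on scaffold 480, at 31030-31183 and at 32357-32681. The others lay at scaffold 2:46667876-46668110, at scaffold 1:119412282-119412405 and at scaffold 7:15055794-15055982. All 5 had a Smad2/3 peak, but only the peak on scaffold 2 had Foxa, only the peak on scaffold 7 had Tle, and none had stage 8 Foxh1.

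Presence in the gastrula list increased steeply with the stage 9 rank. Stage 9 peaks were put into 10 classes of equal size by fold, from class 1, the lowest, to class 10, the highest. In class 1, with folds up to 10.4, 8 of 2994 peaks (0.267%, 0.135 to 0.526%) had a gastrula peak. In class 5 it was 30 of 2994 (1.00%, 0.703 to 1.43%), in class 8 it was 132 of 2993 (4.41%, 3.73 to 5.21%) and in class 9 it was 272 of 2994 (9.08%, 8.11 to 10.2%). In class 10, with folds from 29.97 upward, 565 of 2993 peaks (18.9%, 17.5 to 20.3%) had a gastrula peak. The share increased from each class to the next. Classes 9 and 10 held 837 of the 1203 stage 9 peaks with gastrula Foxh1 (69.6%), and classes 1 to 5 held 79 (6.57%).

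**Figure D1:**
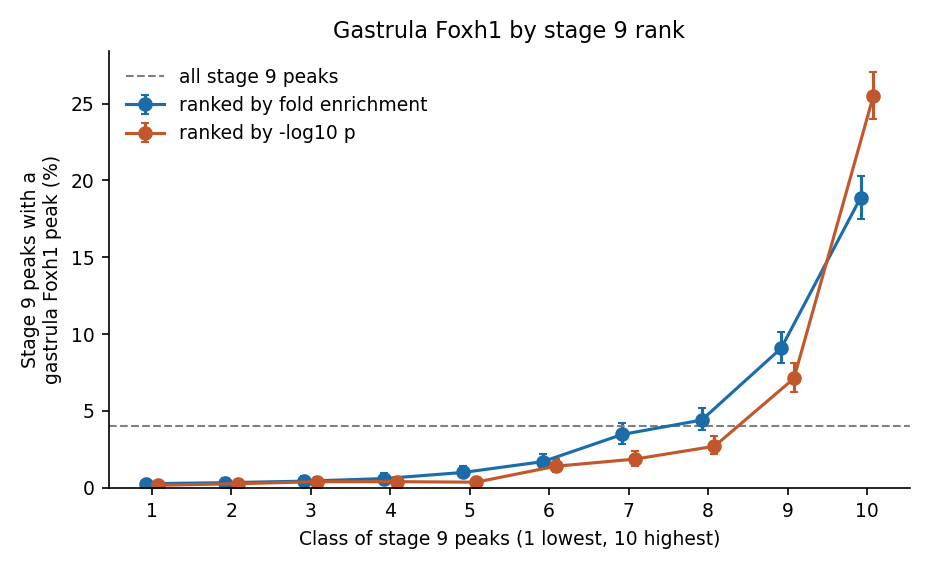
Share of stage 9 Foxh1 peaks with a gastrula Foxh1 peak (y axis, %) in 10 classes of stage 9 peaks (x axis), ranked by fold enrichment or by −log10 p, with Wilson 95% intervals as bars and the share of all stage 9 peaks, 4.02%, as a dashed line. The share reached 18.9% in the highest class by fold and 25.5% in the highest class by −log10 p.

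The relation was steeper when stage 9 peaks were ranked by the deposited −log10 p. The highest class by that value held 763 stage 9 peaks with gastrula Foxh1 (25.5%, 24.0 to 27.1%) and the lowest class held 5 (0.167%, 0.0714 to 0.390%). The area under the curve, the probability that a stage 9 peak with gastrula Foxh1 outranks one without, was 0.840 for fold, 0.889 for −log10 p, 0.812 for width and 0.617 for a short distance to the next peak. Fold and −log10 p are themselves closely tied, with a Spearman's rho of 0.926 over the 29935 stage 9 peaks.

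Even the very top of the stage 9 list was not complete in the gastrula list. Of the 10 highest stage 9 peaks by fold 8 had gastrula Foxh1, of the highest 100 it was 45 (45.0%, 35.6 to 54.8%), and of the highest 1000 it was 264 (26.4%, 23.8 to 29.2%). The 5 highest stage 9 peaks with gastrula Foxh1 include the first 4 of the list, and the fifth has the same fold as a peak on scaffold 9 with no gastrula peak. Their gastrula peaks stood at ranks of 37, 234, 305, 9 and 746 of 1290. The stage 9 peaks lay at scaffold 5:118190466-118191171, at scaffold 3:3425516-3426103, at scaffold 100:176362-177017, at scaffold 27:430299-430832 and at scaffold 1340:6705-7309. Their folds were 27.1, 16.9, 15.0, 35.5 and 9.88 in the gastrula, against 51.0, 50.7, 50.5, 50.5 and 50.2 at stage 9. Peaks that were nearly equal at stage 9 thus spread over much of the gastrula ranking.

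The 5 highest stage 9 peaks with no gastrula peak had stage 9 folds of 50.2, 49.7, 49.7, 49.4 and 49.2. They lay at scaffold 9:7484807-7485213, at scaffold 1:197155695-197156019, at scaffold 4129:4209-5036, at scaffold 4:59120310-59120869 and at scaffold 3:8131637-8132284. All 5 had stage 8 Foxh1 and Tle, none had Smad2/3, and Foxa was present at the first and the last of them. Of the 2428 stage 9 peaks without a gastrula peak in the highest fold class, 93.2% had stage 8 Foxh1 and 70.8% had Tle. Foxa was present at 51.5% of that class without a gastrula peak, and Smad2/3 at 0.577%.

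The order of the peaks within the pairs was only loosely kept. Spearman's rho between gastrula fold and stage 9 fold was 0.216 over the 1213 pairs, and 0.456 between the −log10 p values of the 2 lists. Gastrula fold had a rho of 0.274 with stage 9 width and of 0.347 with stage 9 −log10 p, both above the value for stage 9 fold. All values of a stage come from the same pooled list, each list ends at a lower limit of fold, and ranks in lists of unequal length show no change in binding. Of the 126 paired peaks in the highest gastrula class of 10, 79 (62.7%) came from class 10 at stage 9 and none from classes 1 to 5. Of the 112 paired peaks in the lowest gastrula class, 39 (34.8%) came from class 10 and 16 from classes 1 to 5. The median stage 9 fold was 32.9 in the highest and 26.5 in the lowest gastrula class, with quartiles of 27.0 to 37.6 and 19.2 to 32.8. In each of the 10 gastrula classes the median stage 9 percentile of the paired peaks was 81.1 or higher.

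**Figure D2:**
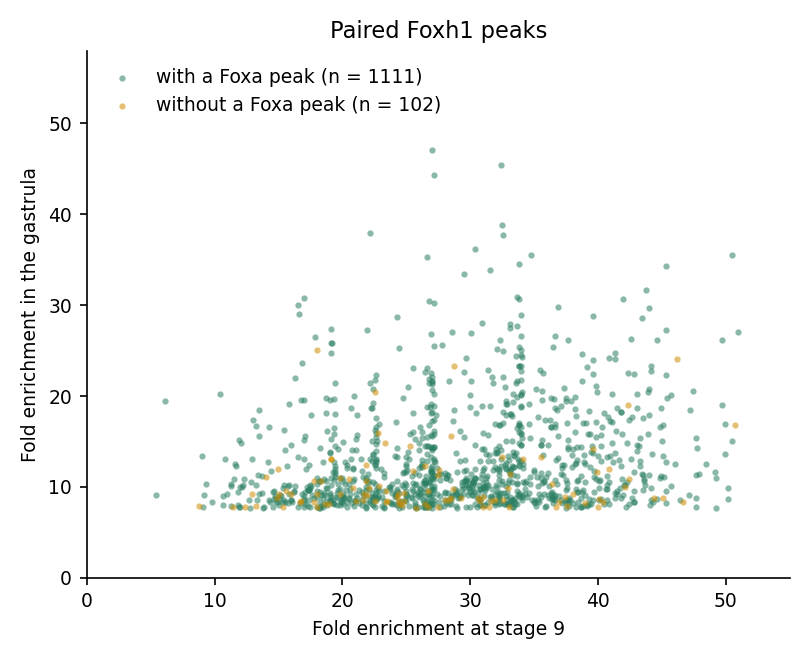
Fold enrichment in the gastrula (y axis) against fold enrichment at stage 9 (x axis) for the 1213 pairs, 1111 with a Foxa peak at the stage 9 peak and 102 without. The cloud is wide, with a rho of 0.216, and the lower edge at 7.70 is the end of the gastrula list.

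Presence of stage 9 Foxh1 also varied along the gastrula list. It fell below 90% only in the weakest 2 of the 10 gastrula classes, with 112 of 129 peaks (86.8%, 79.9 to 91.6%) and 106 of 129 peaks (82.2%, 74.7 to 87.8%). The highest class had 126 of 129 (97.7%, 93.4 to 99.2%).

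The 5 highest gastrula peaks all had Foxa, Smad2/3 and stage 8 Foxh1, and 4 of them had Tle. Their gastrula folds of 47.0, 45.5, 44.4, 38.8 and 37.9 stood against stage 9 folds of 27.0, 32.4, 27.2, 32.5 and 22.2. They lay at scaffold 7:1854610-1854988, at scaffold 5:118186409-118186797, at scaffold 3:5673226-5673610, at scaffold 3:52997711-52998185 and at scaffold 10:12984640-12985089. Their stage 9 ranks ran from 2051 to 7408 of 29935, so none was near the top of the stage 9 list by fold. The stage 9 ranking by fold holds many ties, with only 6019 distinct values among 29935 peaks (20.1%). By stage 9 −log10 p all 5 peaks were in the highest of the 10 classes, which starts at 127.2. Their values were 150.9, 157.4, 150.9, 163.9 and 135.4, of which 150.9 and 157.4 were shared by 44 and 38 stage 9 peaks. The summits of the 5 gastrula peaks differed from the stage 9 summits by 13, 30, 25, 61 and 8 bases.

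The 3 pairs with the largest difference in percentile rank were named in each direction, so their number does not show which direction was more frequent. The third pair ranked higher in the gastrula stood at percentile 2.73 at stage 9 and 70.1 in the gastrula. The third pair ranked lower in the gastrula stood at 97.3 and 0.504. The peak at scaffold 103:297297-297460 had a fold of 19.4 in the gastrula and 6.10 at stage 9, the peak at scaffold 8:24203886-24204079 had 20.2 and 10.45, and the peak at scaffold 85:52164-52285 had 13.4 and 9.00. All 3 had Foxa, Tle and stage 8 Foxh1, and the first and second had Smad2/3. In the other direction, the peak at scaffold 9:54158595-54158922 had a fold of 7.70 in the gastrula and 49.2 at stage 9, the peak at scaffold 8:49148318-49148516 had 7.78 and 47.6, and the peak at scaffold 2:100586910-100587321 had 7.70 and 37.5. All 3 had Foxa and none had Smad2/3, and only the first and second had Tle and stage 8 Foxh1. Of all stage 9 peaks with gastrula Foxh1, 91.5% had Foxa and 20.4% had Smad2/3. Over all pairs the median gastrula fold was 16.2 at the 249 with a Smad2/3 peak and 10.2 at the 964 without, while the median stage 9 fold was 30.4 and 28.5.

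The summits of paired peaks nearly coincided. The median distance between the gastrula summit and the stage 9 summit was 14 bases, with quartiles of 6 and 25 bases. It was within 25 bases in 912 of 1213 pairs (75.2%), within 50 bases in 1106 (91.2%) and over 100 bases in 66 (5.44%). The gastrula summit had the higher coordinate in 587 pairs, the lower in 603 and the same in 23. Summit distance hardly varied with strength. Its median was 13 bases in the highest and 15 bases in the lowest of 4 equal classes of gastrula fold, and 14 and 13 bases in those of stage 9 fold.

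Distant summits came with wide stage 9 peaks. Among the widest of 4 equal classes, 701 to 1865 bases, 15.2% of the pairs had summits over 100 bases apart, against 0.329% among the narrowest, 150 to 380 bases. The 66 pairs over 100 bases apart had a median stage 9 width of 845 bases, against 507 bases for the others, and 10 of them were in stage 9 peaks with 2 gastrula peaks. Their median gastrula fold of 10.2 was close to the 10.7 of the others.

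**Figure D3:**
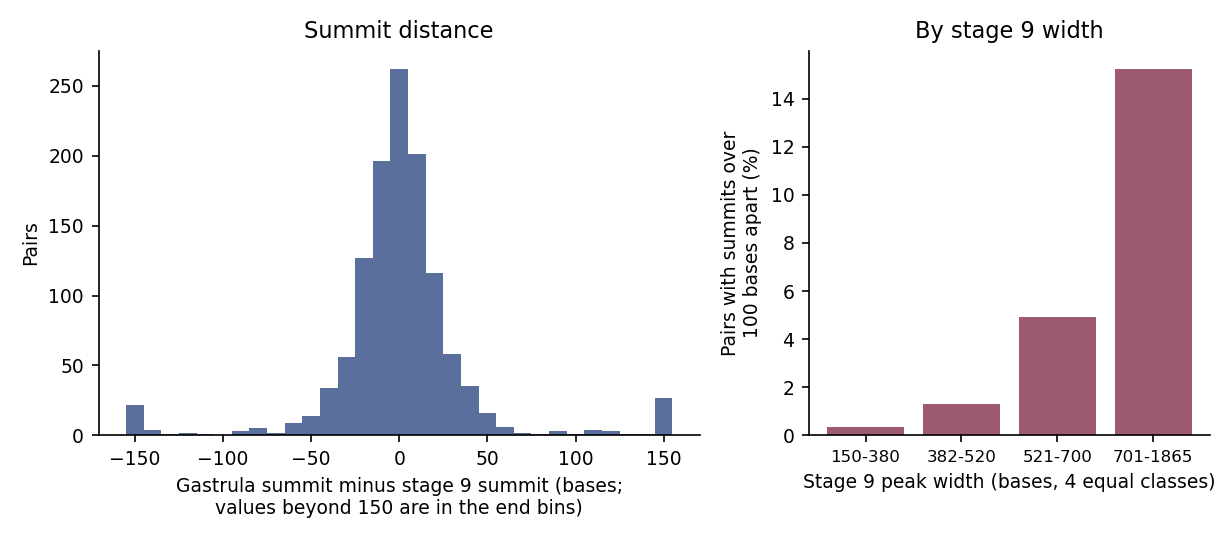
Left, number of pairs (y axis) by the gastrula summit minus the stage 9 summit in bases (x axis), with values beyond 150 bases in the end bins; right, share of pairs with summits over 100 bases apart (y axis, %) in 4 equal classes of stage 9 width in bases (x axis). Most pairs lie within 25 bases of 0, and the share of distant summits is 15.2% in the widest class.

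Wide stage 9 peaks had gastrula Foxh1 more often than narrow ones of like fold. The median width was 518 bases at the 1203 stage 9 peaks with gastrula Foxh1 (quartiles 379.5 and 694.5) and 287 bases at the 28732 without (226 and 388). Width goes with fold, with a rho of 0.488 over the stage 9 list, so each fold class was split into 3 width classes of equal size. In fold class 10, gastrula Foxh1 was present at 300 of 998 wide peaks (30.1%, 27.3 to 33.0%) and at 93 of 997 narrow peaks (9.33%, 7.68 to 11.3%). In fold class 6 it was present at 39 of 998 wide peaks (3.91%, 2.87 to 5.30%) and at 5 of 997 narrow peaks (0.502%, 0.214 to 1.17%). The wide share was higher in 9 of the 10 fold classes, with intervals that did not overlap in 5 of them, classes 6 to 10. Averaged over the fold classes the difference was 4.96 percentage points (4.42 to 5.49). A wide peak also offers more bases for an overlap. The difference was 4.43 points when summits within 100 bases defined a pair, 3.09 points when classes were formed by −log10 p, and 1.19 points when each peak of a pair had to share 50% of its bases.

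The position of the summit inside the stage 9 peak was compared next. Among peaks of at least 400 bases, the summit lay in the middle of 3 equal parts at 618 of 854 peaks with gastrula Foxh1 (72.4%) and at 4182 of 6662 peaks without (62.8%). Over peaks of all widths the shares were 77.7% and 85.9%, the other way round.

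Stage 9 peaks with a close neighbour in the same list had gastrula Foxh1 more often. The next stage 9 summit was at a median of 2784 bases from peaks with gastrula Foxh1 and of 7379.5 bases from peaks without. It was within 5 kb for 62.5% of the first and 42.3% of the second. Presence was highest, at 7.27% (6.50 to 8.14%), where the next summit was 1 to 2 kb away. It was 3.27% (2.24 to 4.75%) within 0.5 kb, 5.90% from 0.5 to 1 kb, 5.06% from 2 to 5 kb and 3.43% from 5 to 10 kb. Beyond 20 kb it stayed between 2.04 and 2.31%. These distance classes were not matched for fold or width. Median fold and width were 17.1 and 350 bases at 1 to 2 kb, and 15.3 and 274 bases within 0.5 kb. Beyond 20 kb the medians were 15.0 to 15.5 and 251 to 268 bases. The 296 stage 9 peaks alone on their scaffold had 14 with gastrula Foxh1 (4.73%, 2.84 to 7.78%).

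The relation to the neighbour was seen in the upper fold classes. In class 10, gastrula Foxh1 was present at 379 of 1566 peaks with the next summit within 5 kb (24.2%, 22.1 to 26.4%) and at 29 of 238 with it beyond 50 kb (12.2%, 8.62 to 17.0%). In class 9 the shares were 12.1% (10.53 to 13.9%) and 5.25% (3.25 to 8.35%), and in class 8 they were 6.15% (5.001 to 7.54%) and 1.97% (0.908 to 4.24%). The intervals were apart in these 3 classes and overlapped in the others. The average difference over the 10 classes was 2.50 percentage points (1.83 to 3.17), 1.32 points with classes by −log10 p and 1.14 points with the 50% overlap. Width moved with the neighbour, with a median of 499 bases within 5 kb and 395 bases beyond 50 kb in class 10. Among the wide peaks of class 10 the shares were 225 of 652 (34.5%, 31.0 to 38.2%) and 6 of 47 (12.8%, 5.98 to 25.2%), whereas among the narrow ones they were 41 of 411 (9.98%, 7.44 to 13.3%) and 11 of 109 (10.1%, 5.73 to 17.2%).

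**Figure D4:**
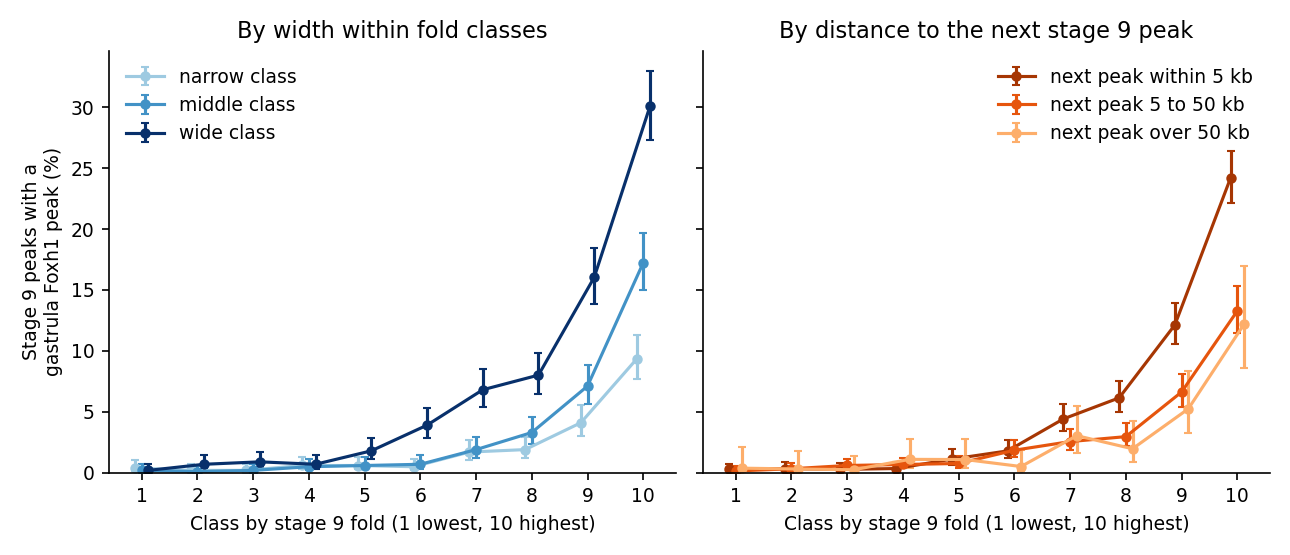
Share of stage 9 peaks with a gastrula Foxh1 peak (y axis, %) in 10 classes by stage 9 fold (x axis), split into 3 width classes on the left and by the distance to the next stage 9 summit on the right, with Wilson 95% intervals as bars. In class 10 the share was 30.1% for wide and 9.33% for narrow peaks, and 24.2% with the next summit within 5 kb and 12.2% beyond 50 kb.

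Gastrula Foxh1 was more frequent in larger groups of neighbouring stage 9 peaks. When summits at most 10 kb apart were chained, the 29935 stage 9 peaks formed 18812 groups, of which 13024 held a single peak. A gastrula peak was present in 318 of these single-peak groups (2.44%, 2.19 to 2.72%), in 118 of 308 groups of 6 to 9 peaks (38.3%, 33.1 to 43.9%) and in 54 of 81 groups of 10 or more (66.7%, 55.9 to 76.0%). A larger group has more chances to hold one. Counted per peak, the share still increased, to 8.42% (7.31 to 9.68%) in groups of 6 to 9. In groups of 10 or more it was 10.96% (9.16 to 13.1%). The median stage 9 fold was 15.2 in single peaks and 17.6 in the largest groups. Groups of different size were not compared within classes of fold, width or Foxa.

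Within groups the gastrula peak was mostly at the strongest stage 9 peak. In the 2368 groups of 3 or more peaks, gastrula Foxh1 was present at 337 of the highest peaks by fold (14.2%, 12.9 to 15.7%), at 134 of the second highest (5.66%, 4.80 to 6.66%), at 75 of the third highest (3.17%, 2.53 to 3.95%) and at 12 of the lowest (0.507%, 0.290 to 0.884%). In the 1210 groups of exactly 3 peaks the third highest was also the lowest, so these peaks count at both places. The median stage 9 folds at the places named were 27.1, 18.7, 13.6 and 11.2, so place in the group and fold were not separated. Where a group of at least 2 stage 9 peaks had gastrula Foxh1 at 1 of them, that peak was the highest of the group in 449 of 600 groups (74.8%). The share that group size alone would give was not computed. A further 113 groups had gastrula Foxh1 at 2 or more stage 9 peaks. The nearest stage 9 neighbour had gastrula Foxh1 too for 129 of 1189 peaks with gastrula Foxh1 (10.8%, 9.21 to 12.7%) and for 1186 of 28450 peaks without (4.17%, 3.94 to 4.41%). With the neighbour within 1 kb the shares were 10.3% (6.83 to 15.2%) and 5.16% (4.48 to 5.93%). Beyond 50 kb they were 4.05% (1.39 to 11.3%) and 2.54% (2.05 to 3.14%). The intervals were apart in the distance classes up to 10 kb and overlapped beyond it. These shares were not matched for fold, width or Foxa. Peaks that are each other's nearest neighbour count from both sides, so the counts are not independent.

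The largest number of gastrula peaks in 1 group was 6, reached by 4 groups. The first such groups by scaffold name lay at scaffold 1:55041244-55064420, at scaffold 3:5663266-5688789 and at scaffold 5:98405487-98455426. They held 8, 10 and 17 stage 9 peaks, of which 5, 6 and 6 had gastrula Foxh1. Foxa was at 8, 8 and 13 of them, Smad2/3 at 4 each, Tle at 4, 4 and 10, and stage 8 Foxh1 at 6, 6 and 9. Over all stage 9 peaks the shares were 36.4% for Foxa, 1.18% for Smad2/3, 42.5% for Tle and 58.9% for stage 8 Foxh1. The groups were chosen by their gastrula peaks, and 91.5% of all stage 9 peaks with gastrula Foxh1 had Foxa. The group on scaffold 3 includes the third highest gastrula peak named above.

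Foxa and Smad2/3 were far more frequent at stage 9 peaks with gastrula Foxh1 than at other stage 9 peaks of like fold, whereas Tle and stage 8 Foxh1 differed little at like fold. Of all stage 9 peaks 36.4% had a Foxa peak, 1.18% a Smad2/3 peak, 42.5% a Tle peak and 58.9% a stage 8 Foxh1 peak. Foxa was present at 1101 of the 1203 stage 9 peaks with gastrula Foxh1 (91.5%, 89.8 to 93.0%) and at 9785 of the 28732 without (34.1%, 33.5 to 34.6%). This held from the lowest fold class, with 7 of 8 peaks (87.5%, 52.9 to 97.8%) against 950 of 2986 (31.8%), to the highest, with 530 of 565 (93.8%, 91.5 to 95.5%) against 1250 of 2428 (51.5%, 49.5 to 53.5%). Compared within fold classes, the Foxa difference was 46.6 percentage points (44.7 to 48.4). Within classes by −log10 p it was 38.7 points (36.7 to 40.8). Peaks were not matched for width in these differences. Smad2/3 was present at 245 (20.4%, 18.2 to 22.7%) with gastrula Foxh1 and at 108 (0.376%, 0.311 to 0.454%) without, a difference of 19.9 points (17.6 to 22.1) within fold classes and of 30.0 points in the upper 50% of each list by fold. In class 10, gastrula Foxh1 was present at 127 of 141 stage 9 peaks with Smad2/3 (90.1%, 84.0 to 94.0%) and at 438 of 2852 without (15.4%, 14.1 to 16.7%). The Smad2/3 list and the gastrula Foxh1 list share that earlier series, and the part of this in the result was not tested.

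For the stage 8 lists the difference was small when peaks of like fold were compared and pairs overlapped by 1 base or more. Tle was present at 725 stage 9 peaks with gastrula Foxh1 (60.3%, 57.5 to 63.0%) and at 11989 without (41.7%, 41.2 to 42.3%). Within fold classes the difference was -0.17 points (-3.02 to 2.68). Stage 8 Foxh1 was present at 945 (78.6%, 76.1 to 80.8%) and at 16701 (58.1%, 57.6 to 58.7%). Within fold classes the difference was -3.21 points (-5.41 to -1.01). In class 10 the shares were 69.6% and 70.8% for Tle, and 91.5% and 93.2% for stage 8 Foxh1. With classes by −log10 p in place of fold, both differences were negative. They were -8.44 points for Tle (-11.2 to -5.68) and -9.80 points for stage 8 Foxh1 (-11.7 to -7.87). Within fold classes but with an overlap of 50% of both peaks, they were -7.85 points for Tle (-11.7 to -4.03). For stage 8 Foxh1 the difference was then -9.57 points (-12.7 to -6.40). In the upper 50% of each list by fold the differences were 5.83 points for Tle (2.11 to 9.54) and 1.84 points for stage 8 Foxh1 (-0.754 to 4.43). The sign for Tle thus depended on the setting. For stage 8 Foxh1 the only positive value had an interval that spans both signs, and all other settings gave a negative difference.

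**Figure D5:**
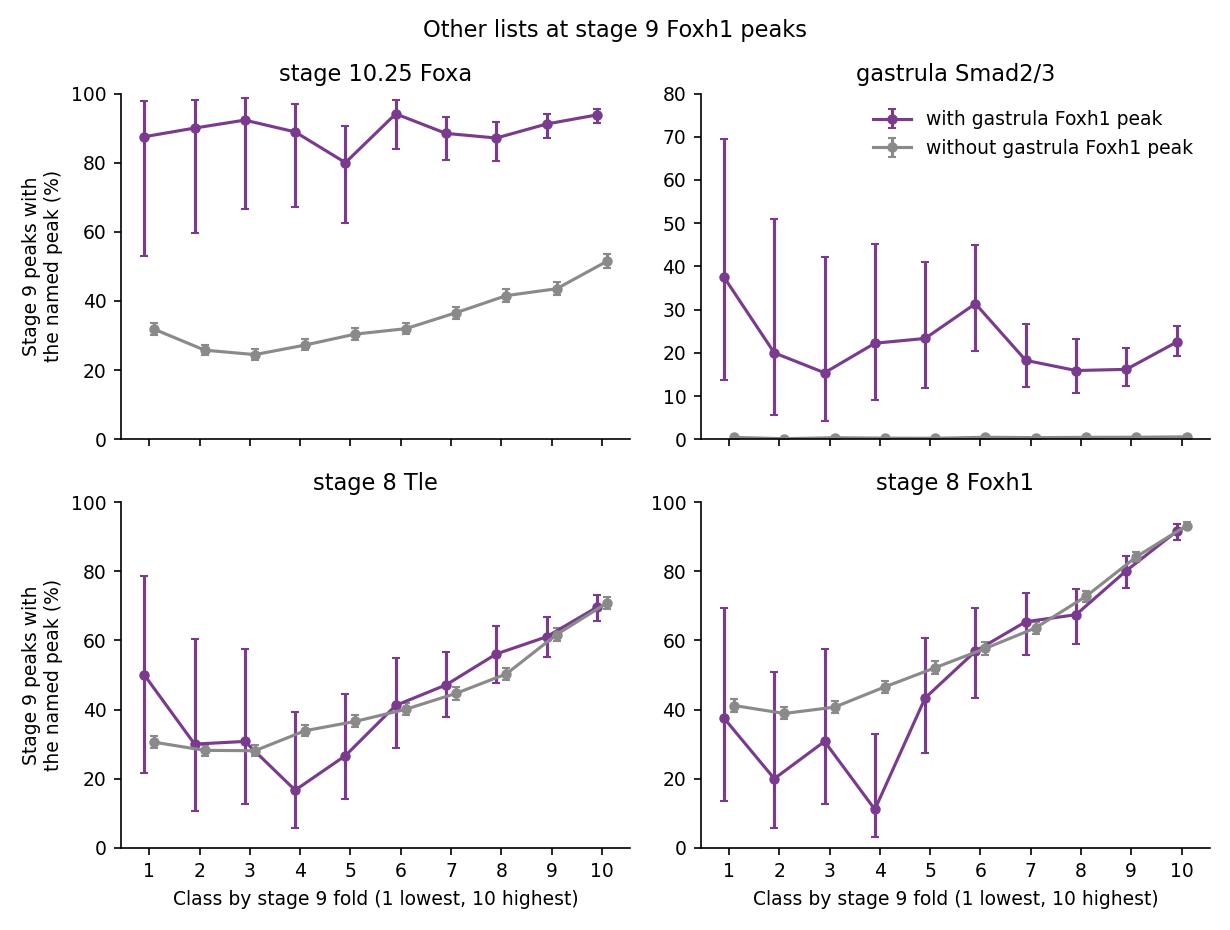
Share of stage 9 peaks with a peak of stage 10.25 Foxa, gastrula Smad2/3, stage 8 Tle or stage 8 Foxh1 (y axes, %) in 10 classes by stage 9 fold (x axes), for stage 9 peaks with and without a gastrula Foxh1 peak, with Wilson 95% intervals as bars. In class 10 Foxa was at 93.8% with and 51.5% without gastrula Foxh1, while the curves for Tle and stage 8 Foxh1 run close together from class 6 upward.

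Seen from Foxa, gastrula Foxh1 was largely found at stage 9 peaks that also had Foxa. Of the 10886 stage 9 peaks with Foxa, 1101 had gastrula Foxh1 (10.1%, 9.56 to 10.7%), and of the 19049 without Foxa it was 102 (0.535%, 0.441 to 0.650%). In fold class 10 the shares were 530 of 1780 (29.8%, 27.7 to 31.9%) and 35 of 1213 (2.89%, 2.08 to 3.99%). Over all fold classes, gastrula Foxh1 was present at 679 of 4634 stage 9 peaks with Foxa and Tle (14.7%, 13.7 to 15.7%) and at 422 of 6252 with Foxa alone (6.75%, 6.15 to 7.40%), groups whose median stage 9 folds were 22.7 and 15.5. In class 10 these shares were 376 of 1242 (30.3%, 27.8 to 32.9%) and 154 of 538 (28.6%, 25.0 to 32.6%), with intervals that overlapped. Without Foxa, the shares over all fold classes were 46 of 8080 with Tle (0.569%, 0.427 to 0.758%) and 56 of 10969 with neither (0.511%, 0.393 to 0.662%), again with overlapping intervals. In class 10 alone they were 17 of 870 with Tle (1.95%, 1.22 to 3.11%) and 18 of 343 with neither (5.25%, 3.34 to 8.14%).

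In class 10, presence in the gastrula list differed with width at peaks with Foxa. Presence also differed with the neighbour at peaks with Foxa, with intervals apart between the next summit within 5 kb and at 5 to 50 kb. Against peaks with the next summit beyond 50 kb, a difference appeared at wide peaks with Foxa, with intervals that overlapped. Among class 10 peaks with Foxa, gastrula Foxh1 was present at 293 of 794 wide peaks (36.9%, 33.6 to 40.3%) and at 73 of 355 narrow peaks (20.6%, 16.7 to 25.1%). Without Foxa the shares were 7 of 204 (3.43%, 1.67 to 6.91%) and 20 of 642 (3.12%, 2.03 to 4.76%), low values in which a difference could hardly show. The wide class itself held more Foxa, with 79.6% against 35.6% of the narrow class. Among class 10 peaks with Foxa, the share was 34.4% (31.6 to 37.3%) with the next stage 9 summit within 5 kb. With the next summit at 5 to 50 kb it was 138 of 609 (22.7%, 19.5 to 26.2%), where the intervals were apart. Beyond 50 kb it was 23.8% (16.7 to 32.8%), with an interval that overlapped slightly with that within 5 kb. Without Foxa the shares were 2.77, 3.05 and 3.01%. Width was not matched in these shares. Among wide peaks with Foxa, the close and distant shares were 222 of 554 (40.1%, 36.1 to 44.2%) and 6 of 30 (20.0%, 9.51 to 37.3%). These intervals overlapped slightly, and the distant class is small. Among narrow peaks with Foxa they were 33 of 162 (20.4%, 14.9 to 27.2%) and 8 of 38 (21.1%, 11.1 to 36.3%). Foxa was present at 67.7% of the class 10 peaks with a close neighbour and 44.1% of those with the next summit beyond 50 kb. The part of Foxa in the width and neighbour differences was not tested further.

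The share of stage 9 peaks with gastrula Foxh1 was similar on most large scaffolds. On the 10 scaffolds with the most stage 9 peaks it ranged from 3.23% on scaffold 2 to 7.93% on scaffold 10. Scaffold 10 had 61 of 769 peaks (7.93%, 6.22 to 10.1%), where the shares of the fold classes applied to its peaks give 4.60%. Scaffold 9 had 101 of 1899 (5.32%, 4.396 to 6.42%), where the fold classes give 4.17%. Scaffold 2 lay below its value from the fold classes, with 109 of 3379 (3.23%, 2.68 to 3.88%) against 4.05%. Foxa was present at 43.4% of the stage 9 peaks of scaffold 10, against 35.0 to 38.6% on the other 9 of these scaffolds. The part of Foxa in the higher share of scaffold 10 was not tested.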

How the data were processed

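The submitters' processing notes list MACS2 2.0.10, HOMER 4.7, Bowtie 1.0.0 and SAMtools without their roles. The sources used here give no genome build, no peak threshold and no input for a given list. Both Foxh1 lists, and those of stage 8 Foxh1 and Smad2/3, were deposited as narrow peaks with the authors' fold enrichment, the deposited −log10 p, a deposited score of 10 times that value and the summit. The Tle and Foxa lists rest on 1 library each, per the labels. The depth behind the lists is unknown. The members and lists were chosen with earlier results of these data known.

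From these files, peaks of different lists were paired at an overlap of 1 base or more. Summits are the peak start plus the summit column. Distances to the next peak run from a summit to the nearest other summit on either side. Peaks were ranked by fold, with ties broken by position, and placed in 10 classes. Coordinates are counted from 1. Shares have Wilson 95% intervals over peaks. Differences at like fold were formed within the 10 classes and averaged with equal weight (width, neighbour) or weighted by the peaks with gastrula Foxh1 (other lists), and their 95% intervals use binomial variances. No test was made, since peaks are not replicates. The computation was tested on simulated data. Regions named are the highest of each list, the highest unpaired of each list, the largest rank moves, the groups with the most gastrula peaks and the peaks nearest to the overlap threshold. Alternatives were an overlap of 50% of both peaks, summits within 100 bases, the upper 50% of each list, a common lowest fold, the 10 scaffolds with the most stage 9 peaks, ranking by −log10 p, the nearest summit only and edge-to-edge distances. Leaving out scaffold 480 was added after seeing the data. Values were computed with pandas 2.3.3, scipy 1.17.1 and numpy 2.4.6 under Python 3.11.15, and plotted with matplotlib 3.10.9.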

Additional observations from a re-analysis of the deposited data

How the results depend on the processing

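Of 84 values of 12 results under the alternatives, 61 stayed within the interval of the value reported and the others left it. Some of the 61 could not have moved. Scaffold 480 held no stage 9 peak, so leaving it out could change only the share of gastrula peaks with stage 9 Foxh1. Each paired gastrula peak met exactly 1 stage 9 peak, so taking only the nearest summit changed nothing. The share of gastrula peaks with stage 9 Foxh1, 94.0%, was 51.0% when each peak had to share 50% of its bases, 88.9% with summits within 100 bases and 96.2% on the 10 scaffolds. A gastrula peak under 50% of the width of its stage 9 peak cannot reach that overlap of 50%. The median ratio of the widths in the pairs was 0.528. With that overlap, 2.20% of stage 9 peaks and 9.62% of the highest class had gastrula Foxh1, the width difference was 1.19 points, the neighbour difference 1.14, Tle -7.85 and stage 8 Foxh1 -9.57 points. Ranking by −log10 p gave 25.5% in the highest class, a rho of 0.456, and differences of 3.09 points for width, 1.32 for the neighbour, 38.7 for Foxa, -8.44 for Tle and -9.80 for stage 8 Foxh1. In the upper 50% of each list by fold the highest class had 13.7% and rho was 0.127. The differences there were 6.37 points for width, 3.71 for the neighbour and 30.0 for Smad2/3. Tle was at 5.83 points and stage 8 Foxh1 at 1.84 points (-0.754 to 4.43), both with their sign changed. The cause of these shifts was not tested. The median summit distance was 13 or 14 bases throughout. No paired analysis was possible because each stage has 1 pooled list, and for the same reason no replicate could be left out.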

Other observations

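Strong stage 9 peaks shared a few exact values of the deposited −log10 p, and the share with gastrula Foxh1 differed widely between these values. In the highest class by −log10 p, where the share was 25.5%, 19 values were shared by at least 20 peaks each, and 8 of them lay below that share. The lowest was a −log10 p of 130.1, with none of 25 stage 9 peaks (interval up to 13.3%), followed by 133.9 with 1 of 22 (4.55%, 0.807 to 21.8%) and 136.5 with 2 of 20 (interval 2.79 to 30.1%). The 3 values with the highest shares were chosen after their values were seen. At a −log10 p of 167.3, gastrula Foxh1 was present at 29 of 41 stage 9 peaks (70.7%, 55.5 to 82.4%), with a median stage 9 fold of 33.97 and a median width of 775 bases. At 150.9 it was present at 34 of 44 (77.3%, 63.0 to 87.2%), with a median fold of 27.0 and a median width of 736.5 bases. At 138.2 it was present at 18 of 24 (interval 55.1 to 88.0%), with a median fold of 22.6 and a median width of 823 bases. Peaks at a neighbouring shared value of 164.0 had 7 of 26 (26.9%, 13.7 to 46.1%) and a median width of 599.5 bases. The peaks at the 3 values stand as vertical lines in the plot of paired folds. Why the values repeat was not tested.

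At like −log10 p, a lower stage 9 fold went with more gastrula Foxh1 in the second highest of 10 classes. There the shares were 12.02% (10.2 to 14.2%) for the lowest and 4.11% (3.04 to 5.53%) for the highest of 3 equal classes of fold. Foxa was present at 65.2% and 40.1% of these peaks, and their median widths were 446 and 358 bases. In the highest class by −log10 p the shares were 28.7, 21.3 and 26.5% from low to high fold, with no steady order.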
